A study of Solanum lycopersicum with 14 samples.

Results

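Tomato fruit of 7 days after flowering (DAF) carried high levels of 220 genes whose transcripts were at least 4-fold lower 1 harvest later, at 14 DAF, in both cultivars studied. The 220 members were chosen from 26392 genes by these values: at least 50 reads at 7 DAF in HG6-61 and in Ailsa Craig (AC), and an RPKM (the read count scaled for gene length and library size) at 7 DAF at least 4 times that at 14 DAF in each. Of the 7549 genes with 50 reads at 7 DAF in both, 260 (3.44%) passed the fold limit in HG6-61 and 346 (4.58%) in AC. HG6-61 is a late-maturing line from China and AC an early English variety, neither with any treatment, and both were grown in 1 greenhouse. Pericarp from fruits of 5 plants of each cultivar was mixed at 7 ages, weekly up to 49 DAF, and 1 RNA-seq library was made for each of these 14 samples. Since the levels at 7 and 14 DAF chose the members, they are given as a description. The main tests use only the 10 libraries of 21 to 49 DAF. In a mixed tissue, fewer cells of a type and less RNA per cell cannot be told apart.

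A young tomato fruit grows first by cell division and then, for most of its life, by cell expansion. Dividing plant cells build B-type cyclins, mitotic kinases and the motor proteins of the phragmoplast, the microtubule array that lays down the new cell wall. Green tomato tissue also makes defence compounds, among them steroidal glycoalkaloids, which are built from cholesterol, oxidised by cytochrome P450 enzymes and dioxygenases, and decorated with sugars by UDP-glycosyltransferases. Gene names below are the symbols of the closest Arabidopsis gene as the tables list them, so a role given for a name is the role of the Arabidopsis gene. Of the members, 91 had a symbol, 209 had an Arabidopsis match and 11 had none. No sequence is shown, since none was at hand for these gene identifiers.

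Library totals ranged from 1461817 counts in HG6-61 at 35 DAF to 6274456 in HG6-61 at 21 DAF, so late values of low genes rest on few reads. PSY, a phytoene synthase gene that marks ripening, was at 42.2 RPKM in HG6-61 at 35 DAF and at 3080 RPKM in AC at 35 DAF. It reached 1862 RPKM in HG6-61 at 42 DAF, so the cultivars were at different points of ripening at the same age.

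The members took up 6.55% of all counts in HG6-61 at 7 DAF (95% Wilson interval 6.52 to 6.57%) and 6.34% in AC (6.30 to 6.37%). At 14 DAF the shares were 0.463% in HG6-61 and 0.412% in AC. From 21 to 49 DAF they were 0.249, 0.172, 0.194, 0.287 and 0.0867% in HG6-61, and 0.283, 0.128, 0.399, 0.178 and 0.0693% in AC. The later high points rest on a lipoxygenase and an endoglucanase gene described further on, LOX1 and GH9B1, with 4036 and 1027 of the 6084 member reads in HG6-61 at 42 DAF and 6888 and 5781 of the 17058 in AC at 35 DAF. The median RPKM of the members was 50.6, 4.96, 2.95, 1.37, 0.505, 0 and 0 from 7 to 49 DAF in HG6-61. In AC it was 55.0, 4.59, 2.33, 0.75, 0.18, 0 and 0. Over the other 7329 genes with 50 reads at 7 DAF, the median stayed between 22.5 and 35.6 RPKM in HG6-61 and between 21.5 and 37.0 RPKM in AC. The median of the members was thus lower at each later age up to 42 DAF, and between 52.3% and 61.8% of them had no read in a library of 42 or 49 DAF.

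**Figure D1:**
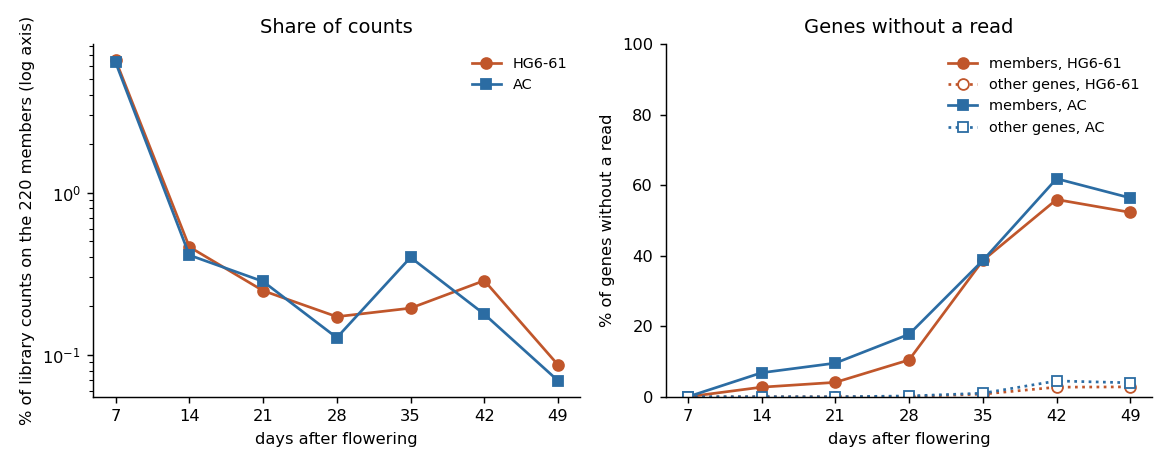
Left, the percentage of each library's counts that fell on the 220 members (log axis), by days after flowering, with orange circles for HG6-61 and blue squares for AC. Right, the percentage of genes without a read, with filled symbols for the members and open symbols for the other 7329 genes. At 42 DAF 55.9% of members had no read in HG6-61 and 61.8% in AC, beside 2.73% and 4.49% of other genes.

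At 14 DAF, 6 members had no read in HG6-61 and 15 had none in AC. The remaining folds between 7 and 14 DAF ranged from 4.03 to 627 in HG6-61 (median 7.51) and from 4.06 to 401 in AC (median 10.7). In both cultivars at once, 74 members were at least 10-fold lower and 8 at least 100-fold lower at 14 DAF, with a gene without reads counted at the level that 3 reads would give. Only 2.91% of the 7549 genes passed the limit in both cultivars, and 0.291% (22 genes) were at least 4-fold higher in both at 14 DAF. The 7549 genes were kept for their reads at 7 DAF, which leaves out genes too low at 7 DAF that rose by 14 DAF. These shares therefore cannot show whether falls outnumbered rises among all genes. Closest inside the limit were Solyc12g009310.1, with folds of 4.03 in HG6-61 and 5.24 in AC, and AT3BETAHSD/D2 (Solyc02g081730.2), with 4.85 in HG6-61 and 4.06 in AC. Closest outside were GH3-10 (Solyc10g008520.2), with folds of 3.99 in HG6-61 and 9.50 in AC, and Solyc03g098700.1, with 3.99 in HG6-61 and 5.02 in AC. These 2 genes had no read in either cultivar at 49 DAF, as had the member Solyc12g009310.1.

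A stretch of chromosome 7 held 3 of the 10 members with the highest mean level at 7 DAF. From Solyc07g043390.2 to Solyc07g043500.1 the tables list 8 genes, and 7 of them were members. At 7 DAF these 7 lay between 559 and 4368 RPKM in HG6-61 and between 581 and 3875 RPKM in AC. Solyc07g043420.2 had the highest level of all members at 7 DAF, and its Arabidopsis match, AT4G10500, encodes a 2-oxoglutarate and iron dependent oxygenase. It had 4368, 106, 61.3, 58.1, 19.9, 3.42 and 2.84 RPKM from 7 to 49 DAF in HG6-61, and 3875, 131, 113, 46.5, 17.5, 2.43 and 6.87 RPKM in AC. No later library of either cultivar came near the level of 7 DAF.

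The others of the stretch followed the same course at lower levels. CSLG2 (Solyc07g043390.2), a member of the cellulose synthase-like family, had 2870, 15.8, 8.61, 14.9, 1.56, 0.46 and 1.64 RPKM in HG6-61 and 2172, 11.1, 12.3, 6.50, 0.46, 1.04 and 0.36 RPKM in AC. Cytochrome P450 CYP72A7 (Solyc07g043460.2) was at 13.4 RPKM at 14 DAF and 673 RPKM at 7 DAF in HG6-61, and at 14.1 and 581 RPKM at these ages in AC. Of the 3 glycosyltransferase genes beside it, UGT72E1 (Solyc07g043480.1) had 3.20 RPKM at 14 DAF against 1127 at 7 DAF in HG6-61, and 2.19 against 841 RPKM in AC. UGT73C5 (Solyc07g043490.1) had 16.3 RPKM at 14 DAF against 800 at 7 DAF in HG6-61, and 16.1 against 693 RPKM in AC. The other glycosyltransferase, Solyc07g043500.1, had 23.5 against 1512 RPKM in HG6-61 and 97.1 against 1816 RPKM in AC. Solyc07g043400.1, a short gene model of 204 bases with no Arabidopsis match, had 3 reads at 14 DAF in each cultivar against 478 reads in HG6-61 and 242 in AC at 7 DAF.

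A gene inside the stretch and the next gene number after it did not share this course. UGT73C6 (Solyc07g043410.1), a glycosyltransferase gene in its middle, was at 0.73 RPKM or less in every library of HG6-61 and at 0.31 RPKM or less in AC. Solyc07g043510.2, the next gene number after the stretch, had 9.33, 7.90, 34.9, 36.9, 27.7, 70.6 and 42.0 RPKM in HG6-61 and 14.5, 18.2, 71.1, 61.9, 57.3, 75.9 and 106 RPKM in AC. In all, 23 of the 220 members lay within 3 gene numbers of another member, in 9 runs. By this limit the chromosome 7 stretch was split into a run of 3 and a run of 4 members.

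**Figure D2:**
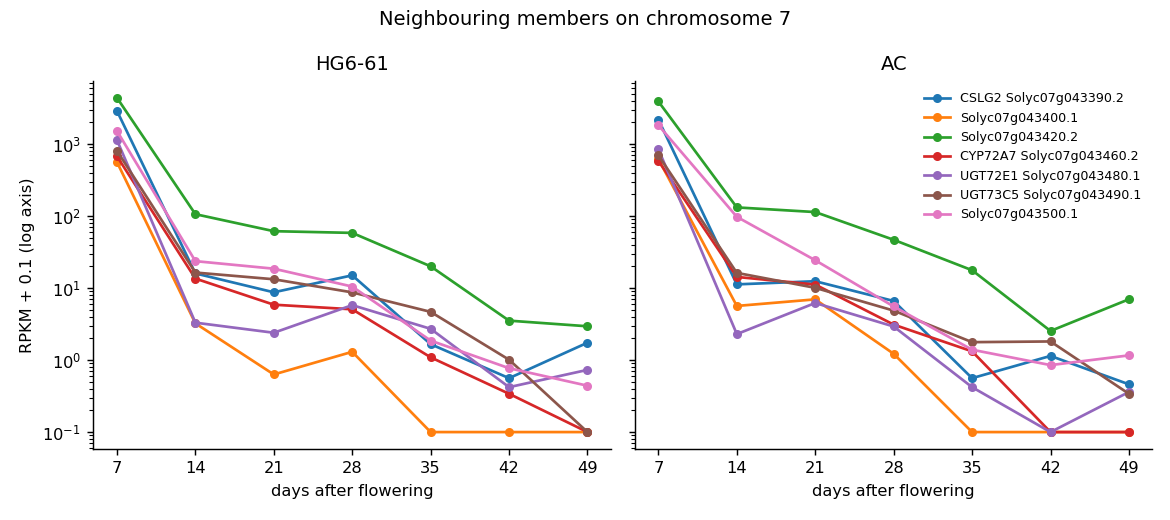
RPKM plus 0.1 (log axis) by days after flowering for the 7 neighbouring members on chromosome 7, with 1 line per gene, in HG6-61 on the left and AC on the right. All 7 lines lie far lower at 14 DAF than at 7 DAF, with a median of 15.8 against 1127 RPKM in HG6-61 and of 14.1 against 841 RPKM in AC.

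A pair of neighbours on chromosome 12 had smaller folds. KAO2 (Solyc12g006460.1), whose Arabidopsis match is a P450 of gibberellin synthesis, had 1015, 62.9, 21.5, 6.36, 3.27, 0 and 0 RPKM in HG6-61 and 597, 65.5, 29.4, 3.88, 0.30, 0.34 and 0.47 RPKM in AC. POP2 (Solyc12g006470.1), matched to the Arabidopsis transaminase of gamma-aminobutyrate, had 978, 96.9, 69.5, 49.0, 14.6, 3.53 and 0 RPKM in HG6-61 and 681, 109, 91.0, 15.0, 2.4, 0.72 and 0 RPKM in AC. A second gene with the symbol POP2 directly before them (Solyc12g006450.1) was no member and lay between 5.96 and 23.9 RPKM in HG6-61 and between 2.16 and 33.8 RPKM in AC.

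Genes matched to sterol synthesis were among the members with the largest folds. Their list was drawn up after the values were seen. Of 23 such genes with 50 reads at 7 DAF, 7 were members (30.4%, where 2.91% of all genes passed the rule), and all 7 stayed under 0.25 of their 7 DAF level in both cultivars. EVE1 (Solyc02g069490.2), also known in Arabidopsis as DWARF1, a sterol side-chain reductase, had 3125, 4.98, 11.3, 29.2, 7.08, 0 and 3.46 RPKM in HG6-61 and 2782, 6.93, 9.97, 14.9, 1.70, 1.27 and 1.43 RPKM in AC. The 25542 and 10508 reads of the gene at 7 DAF stood against 45 reads in HG6-61 and 35 reads in AC at 14 DAF. SMO1-1 (Solyc01g091320.2), a sterol C-4 methyl oxidase, had 2.44 RPKM at 14 DAF against 432 at 7 DAF in HG6-61, and 1.89 against 466 RPKM in AC. SMO2-2 (Solyc06g005750.2), another such oxidase, had 8.0 against 330 RPKM in HG6-61 and 12.3 against 354 RPKM in AC. STE1 (Solyc02g086180.2), a sterol C-5 desaturase, had 8.74 against 145 RPKM in HG6-61 and 9.12 against 201 RPKM in AC.

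Several of these members had a second copy, with the same symbol, that stayed on. The other EVE1 gene (Solyc02g030170.2) had 765, 496, 449, 315, 257, 319 and 209 RPKM in HG6-61 and 777, 646, 278, 252, 341, 554 and 185 RPKM in AC, so at 7 DAF the member was the more abundant of the pair and at every later age the less abundant. A second STE1 gene (Solyc02g063240.2) lay between 14.0 and 29.2 RPKM in HG6-61 and between 10.9 and 29.1 RPKM in AC, while a further one (Solyc02g086190.1) was at 0.59 RPKM or less in every library. The other ST7R gene (Solyc01g009310.2), for a sterol reductase, lay between 19.5 and 94.5 RPKM in HG6-61 and between 26.2 and 60.1 RPKM in AC, while the member ST7R (Solyc06g074090.2) was at 3.59 RPKM at 14 DAF against 51.9 at 7 DAF in HG6-61, and at 4.64 against 64.5 RPKM in AC. Upstream in the pathway, MVA1 (Solyc08g080170.2), matched to hydroxymethylglutaryl-CoA synthase, had 25.1 against 188 RPKM in HG6-61 and 31.8 against 178 RPKM in AC. CAS1 (Solyc04g070980.2), matched to cycloartenol synthase, missed the limit with 29.8 against 130 RPKM in HG6-61 and 40.0 against 125 RPKM in AC. It was at 0.78 RPKM in HG6-61 and 0.54 RPKM in AC by 49 DAF.

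**Figure D3:**
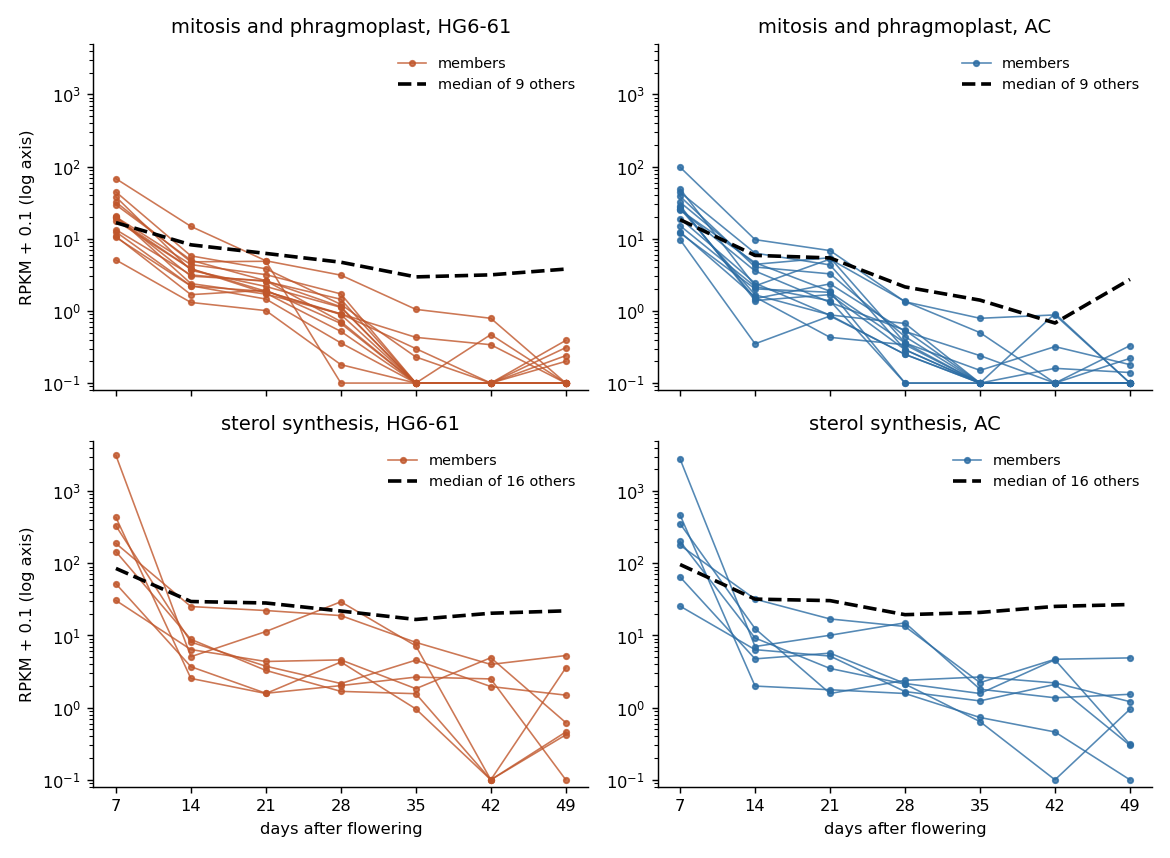
RPKM plus 0.1 (log axis) by days after flowering for the members of the mitosis and phragmoplast list (top, 15 genes) and of the sterol synthesis list (bottom, 7 genes), in HG6-61 on the left and AC on the right. Thin lines are members and the dashed black line is the median of the listed genes that were not members (9 and 16 genes), which stays above most members from 14 DAF on.

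Of the broader list of cell cycle and cytokinesis genes, 10 of 43 with enough reads were members (23.3%). Of a narrower mitosis and phragmoplast list drawn up after the values were seen, 15 of 24 were (62.5%). Over all genes, 2.91% passed the rule. All 15 stayed under 0.25 of their 7 DAF level in both cultivars. Their median was 19.8, 3.55, 2.08, 0.81, 0, 0 and 0 RPKM from 7 to 49 DAF in HG6-61 and 26.1, 2.12, 1.71, 0.26, 0, 0 and 0 RPKM in AC. SYP111 (Solyc06g053760.2), matched to the cytokinesis syntaxin KNOLLE, was the most abundant, with 67.9, 14.7, 4.85, 3.03, 0.95, 0.69 and 0 RPKM in HG6-61 and 98.0, 9.62, 6.75, 1.24, 0.69, 0.78 and 0 RPKM in AC. CDKB2;2 (Solyc04g082840.2), a mitotic cyclin-dependent kinase, had 4.94 RPKM at 14 DAF against 29.4 at 7 DAF in HG6-61, and 6.22 against 44.0 RPKM in AC. CYCB1;2 (Solyc01g009040.2), a B-type cyclin, had 3.73 against 17.8 RPKM in HG6-61 and 4.32 against 32.0 RPKM in AC. PLE (Solyc03g007130.2), a microtubule bundling protein of the phragmoplast, had 3.55 against 37.9 RPKM in HG6-61 and 1.57 against 26.1 RPKM in AC.

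At 35 DAF, 11 of the 15 had no read in HG6-61 and 11 had none in AC. NACK1 (Solyc03g119220.2), a kinesin of the phragmoplast, had 2.93 RPKM at 14 DAF against 19.8 at 7 DAF in HG6-61, and 1.38 against 27.6 RPKM in AC. The spelling of its symbol also put it among the 4 members of the transcription factor list, to which it does not belong. Of the histone list, 2 of 19 genes were members (10.5%, where 2.91% of all genes passed the rule). The list goes by symbol, so members without a symbol could not enter it. HTA12 (Solyc11g073260.1) had 7.52 RPKM at 14 DAF against 43.9 at 7 DAF in HG6-61, and 8.78 against 93.9 RPKM in AC. Kinesins, a group taken from the members themselves, numbered 12, with a median of 3.06 RPKM at 14 DAF against 20.125 at 7 DAF in HG6-61, and 2.33 against 19.7 RPKM in AC. The 9 genes of the narrower list that were no members had a median of 3.7 RPKM at 49 DAF against 16.6 at 7 DAF in HG6-61, and of 2.63 against 18.3 RPKM in AC. CDC20.1 (Solyc06g072830.2) among them had no read at 49 DAF, against 14.3 RPKM at 7 DAF in HG6-61 and 20.3 RPKM in AC. KEU (Solyc08g079520.2), matched to the KEULE partner of the syntaxin, lay between 26.6 and 68.6 RPKM in HG6-61 and between 25.5 and 47.7 RPKM in AC.

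Inhibitors of proteases made up a further group, gathered from their Arabidopsis matches after the values were seen. Those with enough reads that were no members carried only matches that members had too, AT3G12490 or AT2G38870. A high share of members was therefore likely from the outset and cannot be read as a share of the inhibitor families. Of 13 such genes with enough reads, matched to Kunitz, potato inhibitor I or cystatin families, 10 were members (76.9%, against 2.91% of all genes). Their median was 191, 3.50, 1.24, 0.11, 0, 0 and 0 RPKM in HG6-61 and 205, 1.67, 0.35, 0.305, 0, 0 and 0 RPKM in AC. KTI1 (Solyc11g022590.1), a Kunitz trypsin inhibitor gene, was the exception within it, with 980, 9.87, 35.7, 111, 161, 60.8 and 8.76 RPKM in HG6-61 and 1581, 9.42, 59.9, 47.3, 18.4, 311 and 14.3 RPKM in AC. Its highest later values, at 35 DAF in HG6-61 and at 42 DAF in AC, were 0.164 and 0.197 of the 7 DAF level. Solyc03g098790.1, another Kunitz gene, had 8 reads at 14 DAF against 1285 at 7 DAF in HG6-61, and 0 against 348 reads in AC. CYSB (Solyc00g071180.2), a cystatin gene, had 5 against 1717 reads in HG6-61 and 4 against 434 reads in AC. Other CYSB genes were no members. Of these, Solyc03g097270.2 lay between 120 and 242 RPKM in HG6-61 and between 114 and 298 RPKM in AC.

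The list of defence, cysteine-rich peptide and inhibitor genes, which overlaps this group, had 7 members of 55 (12.7%, against 2.91% of all genes). LCR79 (Solyc07g006380.2), a small cysteine-rich peptide, had 1532, 111, 14.3, 0.83, 0, 0 and 0.76 RPKM in HG6-61 and 878, 16.5, 0.79, 0, 0, 0 and 0 RPKM in AC. DIR1 (Solyc01g109390.2), a lipid transfer protein of systemic resistance in Arabidopsis, had 40.0 RPKM at 14 DAF against 342 at 7 DAF in HG6-61, and 26.8 against 309 RPKM in AC. In this list PDF1 stands for 2 members that match AT2G42840, PROTODERMAL FACTOR 1, which is an epidermal gene and no defensin. Of 5 acyltransferase genes with the match AT3G26040, 4 were members too (80.0%), a group picked after the values were seen. These 4 had a median of 1.81 RPKM at 14 DAF against 84.4 at 7 DAF in HG6-61, and 0.985 against 61.6 RPKM in AC. One of them, Solyc07g052060.2, had no read from 21 DAF on in either cultivar, after 436 reads in HG6-61 and 199 in AC at 7 DAF.

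Among the remaining abundant members, UGT73B4 (Solyc12g009930.1), a glycosyltransferase, had 3429, 327, 125, 30.2, 8.28, 0 and 1.45 RPKM in HG6-61 and 2745, 275, 73.2, 2.57, 1.61, 0.40 and 0.28 RPKM in AC. Solyc07g006570.2, matched to a ribonuclease of the T2 family, had 1982, 245, 151, 42.2, 12.8, 39.4 and 20.9 RPKM in HG6-61 and 2737, 319, 77.4, 26.4, 30.6, 11.1 and 3.19 RPKM in AC. Solyc01g006400.2, without a match, had 191 RPKM at 14 DAF against 2471 at 7 DAF in HG6-61, and 88.7 against 2625 RPKM in AC. OMR1 (Solyc09g008670.2), matched to threonine deaminase of isoleucine synthesis, had 0.94 against 230 RPKM in HG6-61 and 2.52 against 386 RPKM in AC. It had 37 reads (10.9 RPKM) in HG6-61 at 35 DAF and none in AC at that age. Solyc12g087940.1, matched to an aspartyl protease family, had 5.37 against 388 RPKM in HG6-61 and 1.70 against 336 RPKM in AC.

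Of cell wall genes, 8 of 67 were members (11.9%, against 2.91% of all genes). XTH9 (Solyc07g052980.2), a xyloglucan endotransglucosylase, had 422, 58.0, 32.4, 10.6, 9.61, 0.79 and 0 RPKM in HG6-61 and 387, 29.7, 21.1, 2.02, 0.98, 0 and 0 RPKM in AC. PGIP1 (Solyc07g065090.1), an inhibitor of polygalacturonases, had 817, 145, 43.0, 16.1, 23.1, 1.80 and 9.65 RPKM in HG6-61 and 705, 78.7, 34.2, 8.20, 8.81, 0 and 12.1 RPKM in AC. By symbol, the list of UDP-glycosyltransferases had 5 members of 22 and that of cytochrome P450 genes 2 of 27, where 2.91% of all genes passed the rule. These counts leave out KAO2, matched to a P450, and Solyc07g043500.1, a glycosyltransferase gene without a symbol. CYP78A10 (Solyc03g114940.2), in the P450 list beside CYP72A7, differed between the cultivars at 7 DAF, with 107 RPKM in HG6-61 and 375 RPKM in AC. At 14 DAF it was at 20.8 RPKM in HG6-61 and 57.1 RPKM in AC.

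The hormone lists, which go by symbol, were short. Those of ethylene, jasmonate and abscisic acid genes gave 2 members of 32 (6.25%), of gibberellin 1 of 16 (6.25%) and of brassinosteroid 1 of 15 (6.67%). Those of auxin gave 0 of 24 and of cytokinin 0 of 9, where 2.91% of all genes passed the rule. SRE1, a member matched to abscisic acid synthesis and described below, was in none of them. The gibberellin member, KAO2, and the brassinosteroid member, DWF6, entered by the role of an Arabidopsis gene. Whether these tomato genes act in hormone synthesis was not tested. DWF6 (Solyc10g086500.1), matched to a steroid reductase of brassinosteroid synthesis, had 3.86 RPKM at 14 DAF against 83.1 at 7 DAF in HG6-61, and 5.34 against 115 RPKM in AC. ERF13 (Solyc01g090340.2), an ethylene response factor, had 4 reads at 14 DAF in each cultivar against 250 in HG6-61 and 71 in AC at 7 DAF, and none later. The symbol lists of 56 photosynthesis genes, 62 transporters and channels, 45 receptor-like kinases and 21 MADS-box and floral organ genes held no members. At the 2.91% of all genes that passed the rule, none in lists of this size says little. The lists also miss genes by spelling. The members PPT2, matched to a transporter, DND1, a channel, and MRLK (Solyc09g015170.2), a receptor-like kinase by its symbol, were in none of them. Phenylpropanoid genes gave 1 of 22, PAL2 (Solyc10g086180.1), with 18.2 against 134 RPKM in HG6-61 and 21.7 against 112 RPKM in AC. Peroxidase and redox genes gave 2 of 47, and cuticle, wax and lipid transfer genes 1 of 28, KCS20 (Solyc05g013220.2).

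Marker lists for other tissues that a fruit sample can hold gave no members among 38 genes with enough reads for photosynthetic cells, 14 for phloem, 13 for pollen and 8 for xylem. Seed storage with 2 such genes, ovule and seed coat with 3 and stomata and trichomes with 1 also gave none. At the 2.91% of all genes that passed the rule, all of these lists hold too few genes to say more. None of the tapetum genes had enough reads, and no gene matched the petal and stamen list. The epidermis list gave 2 of 16, the PDF1 genes. Summed over its 75 genes, that list was at 4297 RPKM at 14 DAF against 4291 RPKM at 7 DAF in HG6-61, and at 4928 against 4759 RPKM in AC. The 147 photosynthetic genes summed to 6600 against 6096 RPKM in HG6-61 and to 9079 against 7581 RPKM in AC. The 13 stomata and trichome genes summed to 22.7 against 41.7 RPKM in HG6-61 and to 28.1 against 62.6 RPKM in AC. Their part in the lower levels of the members was not tested.

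The members had a median listed gene length of 2550 bases, and the other 7329 genes one of 4620 bases. They shared few Arabidopsis matches with each other, 25 of them in 11 sets.

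Each member was then placed by its highest later RPKM, at 21 to 49 DAF in a library with at least 10 reads of it, over its RPKM at 7 DAF. In both cultivars 195 members stayed under 0.25, and 65 had no read at all in the 4 libraries of 42 and 49 DAF. Of all 7549 genes, 4.95% stayed under 0.25 in both and 46.6% returned to their 7 DAF level in both. Because these ratios contain the 7 DAF value, they are a description only. A further 18 members came to between 0.25 and 1 in at least 1 cultivar and to 1 in none, a course that 32.6% of all genes had, and 7 were back at 1 or more in 1 cultivar or in both.

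GH9B1, LOX1 and Solyc07g061800.2 returned in both cultivars. GH9B1 (Solyc09g010210.2), an endoglucanase that cuts cell wall glucans, had 15.6, 3.81, 3.95, 3.1, 2.09, 262 and 5.44 RPKM in HG6-61 and 35.1, 7.16, 3.22, 3.93, 738, 158 and 3.24 RPKM in AC. Its peak came at 42 DAF in HG6-61 and at 35 DAF in AC, the ages at which PSY stood at 1862 RPKM in HG6-61 and 3080 RPKM in AC. LOX1 (Solyc08g014000.2), a lipoxygenase, had 70.0, 1.66, 21.8, 64.1, 252, 607 and 74.2 RPKM in HG6-61 and 33.5, 3.71, 88.6, 72.8, 518, 263 and 7.83 RPKM in AC, also with its highest values at 42 DAF in HG6-61 and at 35 DAF in AC. Solyc07g061800.2, matched to a heme-binding protein, returned much earlier, with 33.7, 2.98, 50.1, 92.4, 0.66, 0 and 0.49 RPKM in HG6-61 and 78.2, 4.08, 327, 10.6, 2.16, 0 and 0 RPKM in AC.

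A further 4 members, 2 in each cultivar, returned in 1 cultivar alone, where 10.7% of all genes returned in HG6-61 alone and 5.14% in AC alone. XTR7 (Solyc12g011030.1), a xyloglucan endotransglycosylase, had 56.6, 3.58, 10.7, 4.17, 2.89, 17.2 and 94.6 RPKM in HG6-61 and 74.2, 4.06, 19.9, 13.7, 53.2, 19.6 and 59.2 RPKM in AC. Solyc01g091170.2, matched to an arginase, had 27.7, 2.71, 7.81, 16.6, 38.1, 0 and 0 RPKM in HG6-61 and 20.7, 4.28, 14.2, 9.06, 0, 0 and 0 RPKM in AC. DND1 (Solyc02g088560.2), a cyclic nucleotide-gated channel, had 31.8, 6.23, 7.36, 6.76, 7.33, 17.5 and 6.68 RPKM in HG6-61 and 20.12, 3.77, 4.67, 6.66, 11.7, 20.6 and 6.70 RPKM in AC. Solyc09g091430.2, matched to a pectate lyase, had 52.7, 12.01, 7.52, 0.82, 3.18, 18.1 and 6.05 RPKM in HG6-61 and 63.9, 10.8, 2.75, 3.04, 198, 11.3 and 1.96 RPKM in AC. XTR7 differed most between the cultivars at 35 DAF, with 2.89 RPKM in HG6-61 and 53.2 RPKM in AC.

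**Figure D4:**
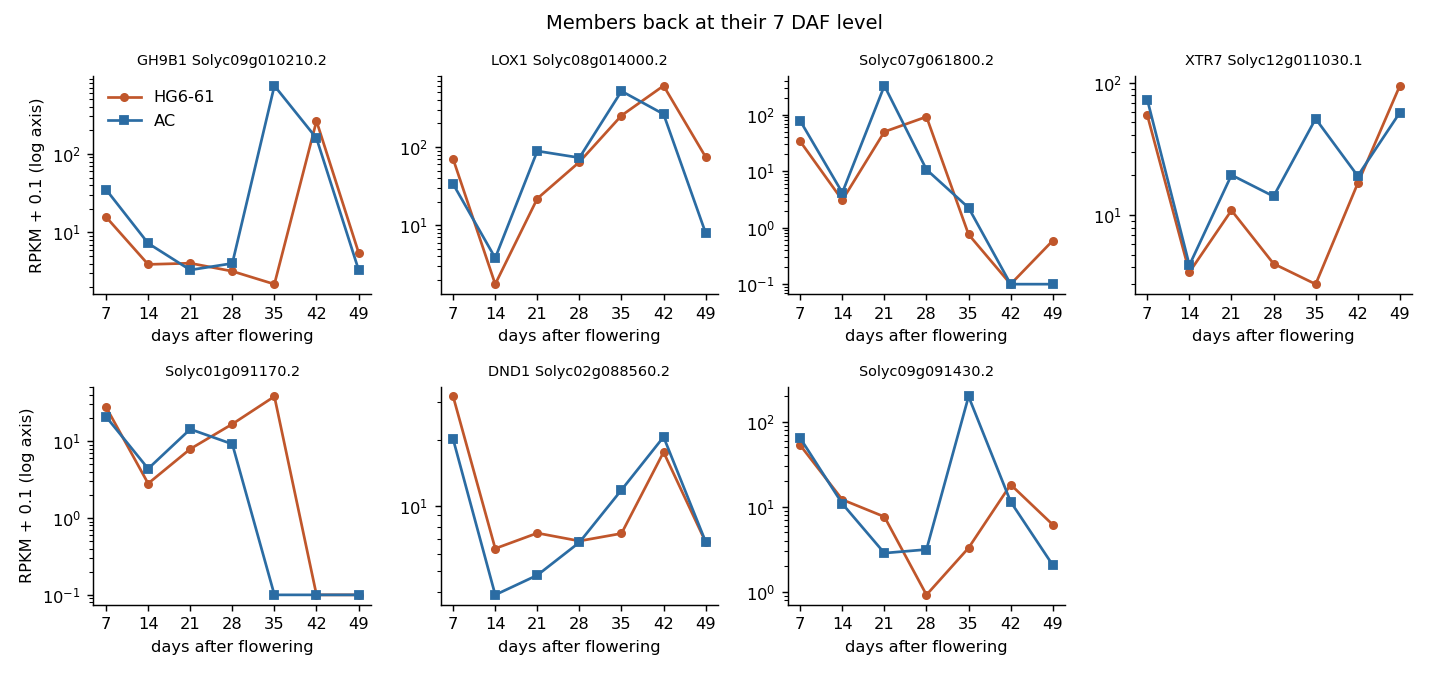
RPKM plus 0.1 (log axis, a scale of its own in each panel) by days after flowering for the 7 members that came back to their 7 DAF level in at least 1 cultivar, with orange circles for HG6-61 and blue squares for AC. GH9B1 peaks at 262 RPKM at 42 DAF in HG6-61 and at 738 RPKM at 35 DAF in AC.

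The later course was tested by comparing 42 and 49 DAF with 21 and 28 DAF, with age and cultivar in 1 edgeR model, so that each side had 4 libraries. Genes were called where the adjusted p lay under 0.01 and the log2 change beyond 2. Of the 220 members, 112 had too few reads to be tested, 58 of them with no read at 42 and 49 DAF. Of the 108 tested, 30 were lower and 1 was higher late, in a table of 16745 genes of which 7.70% were called lower and 2.51% higher. A member with few reads enters the test only through the ages where it is high, so this count cannot be read as a share of all members. The same filter can favour a lower late level in the medians, the counts at an unadjusted p and the calls with few late reads below. They hold for the members tested and cannot be read as a decline of all members. The median log2 change was -2.95 over the 108 members and -0.08 over all 16745 genes, and it stayed at -2.95 with the 7 members without late reads set at the bound that 3 reads allow. At an unadjusted p under 0.05, 71 members were lower and 7 higher, where 25.8% of all genes were lower and 19.4% higher. Leaving out the AC library of 21 DAF cut the 30 lower calls to 12, the HG6-61 library of 28 DAF to 15, and that of 42 DAF to 17, while DESeq2 gave 49. Without the AC library of 42 DAF, that of 49 DAF or the HG6-61 library of 21 DAF, 19 of the 30 remained each time.

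Of the chromosome 7 stretch, 5 genes fell further. Solyc07g043420.2 fell by 3.90 on the log2 scale (SE 0.35, edgeR adjusted p 0.000325), and its 53 reads at 42 and 49 DAF stood against 1545 reads at 21 and 28 DAF. CSLG2 fell by 3.33 (SE 0.56, adjusted p 0.00286), UGT73C5 by 3.92 (SE 0.65, adjusted p 0.00273) and Solyc07g043500.1 by 3.81 (SE 0.51, adjusted p 0.00122). CYP72A7 fell with 1 read late against 169 reads at 21 and 28 DAF (adjusted p 0.00248), a 90.1-fold lower share of counts with a 95% counting interval of 15.95 to 3579. UGT72E1 did not pass, at a log2 change of -3.78 (SE 0.97, adjusted p 0.0167). Without the AC library of 21 DAF, CSLG2, UGT73C5 and CYP72A7 lost their call, at log2 changes of -2.95, -3.93 and -6.15. They also lost it without the HG6-61 library of 28 DAF, at -3.06, -3.77 and -6.05. Without the HG6-61 library of 42 DAF, CSLG2 (-2.94) and UGT73C5 (-3.57) lost it, as did UGT73C5 without that of 21 DAF (-3.89). Solyc07g043420.2 and Solyc07g043500.1 kept theirs with any 1 library left out.

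POP2 (Solyc12g006470.1) fell by 7.62 (SE 0.80, adjusted p 0.000674), with 13 reads late against 1263 at 21 and 28 DAF. KAO2 beside it had 2 late reads against 360, a 96.0-fold lower share (counting interval 26.4 to 795, adjusted p 0.00201). UGT73B4 fell by 6.27 (SE 0.71, adjusted p 0.000634), with 6 reads against 1381. EVE1 (Solyc02g069490.2) fell by 3.52 (SE 0.63, adjusted p 0.00383), with 26 reads against 544, and lost its call in 4 of the 10 fits with 1 library left out. MVA1 passed the p limit but not the fold limit, at -1.68 (SE 0.37, adjusted p 0.00879).

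Of the members called lower, 3 had no read in any of the 4 late libraries, and their folds are bounds set by 3 reads over these libraries. Solyc07g007250.2, without a match, was at least 74.8-fold lower, with 421 reads at 21 and 28 DAF (adjusted p 0.00609). RIP3 (Solyc09g007360.2), matched to a coiled-coil protein that interacts with ROP GTPases, was at least 32.5-fold lower, with 183 reads at 21 and 28 DAF (adjusted p 0.00256). TOPII (Solyc01g087500.2), topoisomerase II, was at least 30.7-fold lower, with 173 reads at 21 and 28 DAF (adjusted p 0.00522). The early returner Solyc07g061800.2 had 1 late read against 1340 (adjusted p 0.00296). Solyc07g007250.2 lost its call in 7 of the 10 fits with 1 library left out, TOPII also in 7, Solyc07g061800.2 in 4 and RIP3 in 2. Also lower were XTH9 with 2 late reads against 347 (adjusted p 0.00177) and CYP78A10 with 1 against 197 (adjusted p 0.00229), which lost its call in 2 of the 10 fits. PDF1 (Solyc10g007800.2) had 5 against 189 (adjusted p 0.00398) and PGIP1 59 against 449 (adjusted p 0.00721), and they lost their call in 5 and 7 of these fits.

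HSFA6B (Solyc09g065660.2), matched to a heat shock transcription factor, was the single member higher late, with a log2 change of 3.99 (SE 0.78, adjusted p 0.00551). It had 19.3, 2.12, 1.84, 0.52, 0.43, 13.5 and 5.12 RPKM in HG6-61 and 23.1, 5.59, 0.33, 0.32, 5.66, 8.83 and 15.2 RPKM in AC. All 4 late libraries lay above all 4 libraries of 21 and 28 DAF, at 5.12 to 15.2 RPKM against 0.32 to 1.84 RPKM, though on few reads, 16 to 60 against 1 to 17. The call was lost in 6 of the 10 fits with 1 library left out, with log2 changes from 3.48 to 5.2012. GH9B1 did not pass, at 3.41 (SE 1.17, adjusted p 0.0503), nor did XTR7, at 2.17 (SE 0.60, adjusted p 0.0227). SRE1 (Solyc10g083170.1), matched to a short-chain dehydrogenase of abscisic acid synthesis, had a log2 change of 3.57 (SE 1.20, adjusted p 0.0469). Besides HSFA6B, DESeq2 called XTR7, SRE1 and Solyc04g076860.2 higher, and edgeR without a filter on low counts called GH9B1 and XTR7.

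**Figure D5:**
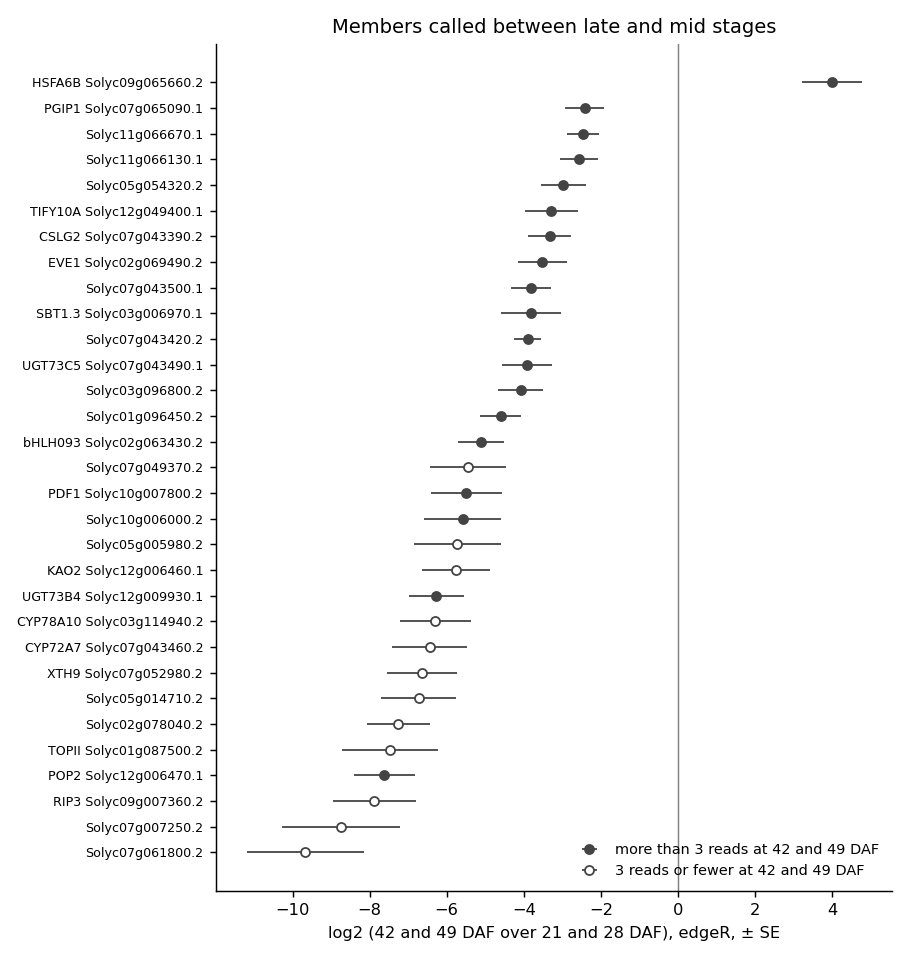
Log2 change of 42 and 49 DAF over 21 and 28 DAF, with its SE, from edgeR for the 31 members that were called, named by symbol and identifier. Open circles mark genes with 3 late reads or fewer, whose fitted size is uncertain. All lie left of 0 except HSFA6B at 3.99.

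Between 28 and 21 DAF, edgeR called none of the 108 members and none of all 16745 genes (0% higher, 0% lower). At an unadjusted p under 0.05, 19 members were lower and none higher, where 3.31% of all genes were lower and 3.74% higher, and DESeq2 called 1 member, UGT73B4, lower at 28 DAF (log2 change -3.30, adjusted p 0.00302). The median log2 change was -1.002 over the members tested and -0.03 over all genes. Here too, a member with few reads enters the test only through the ages where it is high. This can favour a fall from 21 DAF, so the counts and the median cannot be read as a decline of all members.

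HG6-61 and AC were compared over the 5 ages from 21 to 49 DAF. No member was called with edgeR in either direction, where 0.0119% of all genes were higher and 0.0299% lower in HG6-61. At an unadjusted p under 0.05, 10 members were higher and 3 lower in HG6-61, where 6.81% of all genes were higher and 7.23% lower, and DESeq2 called 1 higher and 1 lower. The median log2 ratio of HG6-61 over AC was 0.31 over the 108 members tested and 0.02 over all genes. The ratio was above 0 for 73 members and below 0 for 35, where it was above 0 for 51.8% of all genes and below 0 for 48.2%. The lean was not the same at every age. Of members with at least 10 reads in 1 cultivar, 59.6, 64.5 and 64.5% were higher in HG6-61 at 21, 28 and 35 DAF. Of other genes, 56.3, 60.8 and 54.3% were. At 42 and 49 DAF, 45.7 and 45.5% of such members were higher in HG6-61, against 54.7 and 65.0% of other genes. The cultivars also differed in ripening at the same age. The members were read in the same libraries, so they are no replicates of the cultivar comparison. Scaling by library totals alone moved the median of all genes to 0.11.

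The gene called lower in HG6-61 by DESeq2 was HTB1 (Solyc11g007930.1), a histone H2B gene, with an edgeR log2 ratio of -2.35 (SE 0.39, adjusted p 0.0451). It had 95.6, 15.3, 8.94, 9.59, 19.1, 7.81 and 3.71 RPKM in HG6-61 and 108, 13.3, 43.4, 33.5, 81.3, 22.3 and 58.2 RPKM in AC, lower in HG6-61 at each of the 5 later ages. Reads that aligned to several places had been removed, so its level also depends on how far it differs from other histone genes. The gene called higher by DESeq2 was PPT2 (Solyc02g086650.2), matched to a phosphoenolpyruvate transporter of plastids, with 5.01, 4.71, 2.07, 0.57 and 2.48 RPKM from 21 to 49 DAF in HG6-61 and 1.03, 0.50, 0, 0 and 0 RPKM in AC. UGT73B4 had an edgeR log2 ratio of 1.94 (adjusted p 0.158).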

How the data were processed

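Reads of Illumina Genome Analyzer IIx libraries were cleaned by the authors, mapped to the SL2.40 genome with TopHat allowing 2 mismatches, and stripped of reads aligned to several places. As deposited, counts give the remaining reads of each gene. The RPKM values deposited by the authors divide these reads by gene length and library size. Both tables hold 26392 genes in common. In 6 members at least 1 library had an RPKM above 0 at a count of 0.

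Members were found on RPKM. Counts of the 10 libraries from 21 to 49 DAF were fitted with edgeR 4.0.16 in R 4.3.3 (TMM factors, filterByExpr, quasi-likelihood test, stage and cultivar in the model), and p-values were adjusted by Benjamini-Hochberg over all genes tested. With 1 library of mixed fruit for each cultivar and stage, the spread is what stage and cultivar leave over between libraries. The p-values measure only this spread between these libraries. DESeq2 1.42.0 was an alternative, with RLE factors, library totals, no filter, all 14 libraries, 1 factor left out, a limit of 0.05 and each library left out. For the members, fold limits of 3 and 5, minimums of 20 and 100 reads, TMM-scaled CPM and each cultivar alone were tried. Tested on simulated counts with a log2 change of 3, edgeR called 83.9% of 192 changed genes late against mid with 8 false calls among 16091 genes, 53.8% of 197 at 28 against 21 DAF with 1 among 15984, and 88.1% of 193 between cultivars with 0 among 16006. Python 3.11.15 and pandas 2.3.3 were used for the tables.

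The members and gene lists were chosen with earlier results of these data known. Named genes are the 10 highest at 7 DAF, the 10 largest falls, up to 4 per list, those returning, the largest calls, those named in the paper, those next to the fold limit, and neighbours. Protease inhibitors, acyltransferases, sterol and mitosis genes beyond these were chosen after their values were seen. A count of 0 was given the limit of 3 reads. Limits and intervals cover counting error only.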

Additional observations from a re-analysis of the deposited data

Results flagged for a closer look

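The 4 members that returned to their 7 DAF level in 1 cultivar alone are listed here because each lay at or above that level in 1 cultivar and under it in the other. This difference was not tested, since each age has 1 library per cultivar. The highest later RPKM over that of 7 DAF was 1.38 in HG6-61 and 0.687 in AC for Solyc01g091170.2, and 1.67 in HG6-61 and 0.798 in AC for XTR7 (Solyc12g011030.1). It was 0.552 in HG6-61 and 1.02 in AC for DND1 (Solyc02g088560.2), and 0.343 in HG6-61 and 3.09 in AC for Solyc09g091430.2. The high value of Solyc09g091430.2 rests on the AC library of 35 DAF alone, with 1594 reads.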

How the results depend on the processing

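The rule gave 220 members, 334 with 20 reads, 143 with 100 reads and 346 with AC alone. Members called higher late numbered 1, against 4 with DESeq2, 3 with no filter, 2 with all 14 libraries and 6 at an adjusted p under 0.05 with no fold limit, and 0 to 4 with 1 library left out. Members called lower late numbered 30, against 49 with DESeq2, 49 with no filter, 74 with all 14 libraries and 63 at an adjusted p under 0.05 with no fold limit, and 12 to 36 with 1 library left out. The cause was not tested, but all 220 members entered the fit of 14 libraries and 215 the fit with no filter, against 108. All 30 genes were among the calls of these 4 fits. The fit of 14 libraries includes those of 7 and 14 DAF, whose values chose the members. Its counts, 74 lower and 2 higher, therefore cannot serve as support. Scaling by library totals moved the median log2 change of all genes late against mid to -0.34. At 28 against 21 DAF, DESeq2 called 1 member lower where edgeR called 0. Between cultivars, DESeq2 called 1 higher, and DESeq2, no filter and an adjusted p under 0.05 with no fold limit each called 1 lower, where edgeR called 0. The 19 named members that were called kept their direction in all 304 values under alternatives, and their call in 247. Class counts stayed within 1.5 times of 195 low in both, 7 returned in 1 or more and 3 in both, also with each later library left out (195 to 198, 6 to 7 and 2 to 3), which was chosen after seeing the data. Both cultivars were sampled at each age, and with cultivar as a term of the model the ages were compared within cultivars. No further pairing was possible with 1 library per cultivar and age. With 1 library per cultivar and age, and 1461817 to 6274456 counts, changes of genes with few late reads could not be sized.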
